A study of Glycine max with 8 samples.

Results

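Young soybean beans, 2 mm and 5 mm long, were set against the stages on either side of them, elongating pods and green, fully grown beans. The comparison used all 8 arrays of the series. The young beans comprised 4 arrays (bean 2 mm and bean 5 mm) and the end stages comprised 4 arrays (pod elongation and fully grown), with 2 arrays per stage. Arrays were assigned to the sides by the stage in their titles alone. All samples came from soybean (Glycine max) of cultivar Tamahomare, with no treatment named, and total RNA was hybridised to the Affymetrix soybean array. The bean 2 mm samples held seeds together with their pods, the bean 5 mm and fully grown samples held seeds, and the pod elongation samples held pods. Stage and sampled tissue therefore cannot be told apart, nor can fewer cells of a type and less RNA per cell. The design text asks which transcripts change between successive stages. Transcripts that peaked or dipped in young beans were sought here.

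A developing soybean seed consists of a maternal seed coat and the embryo, with endosperm between them that is largely consumed as the embryo grows. The seed coat delivers sugars and amino acids to the embryo and accumulates proanthocyanidins, which are flavonoid polymers built from anthocyanidins and their precursors. Later, the cotyledons of the embryo fill with storage protein and oil. Isoflavones and flavonols leave the same flavonoid pathway by other branches.

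The sides were balanced in both known technical differences. MAS5, the Affymetrix program that summarises probe signals, is named for the bean 5 mm and fully grown samples only, and each side held 1 such stage. Signals of the 9 hybridization controls, bacterial and phage transcripts added to each sample, were 838 and 839 at 2 mm and 475 and 482 at 5 mm, against 462 and 462 at pod elongation and 987 and 1032 at fully grown. Each side thus also held 1 stage with high and 1 with low controls. The background, taken as the level that 95% of pathogen probe sets on an array did not exceed, was 5.73 to 6.71 after scaling on the young bean and pod elongation arrays but 16 and 18.7 on the fully grown arrays. The ratio of actin 3′ to 5′ signal, a measure of RNA and labelling quality, was 3.64 and 3.60 at 2 mm and 2.07 and 2.22 at 5 mm, against 2.05 and 2.09 at pod elongation and 2.73 and 4.80 at fully grown. Replicates differed by a median of 0.134 (bean 2 mm) and 0.131 (bean 5 mm) on the log2 scale, against 0.117 (pod elongation) and 0.274 (fully grown). The part of background, RNA quality and replicate spread in the results below was not tested.

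Arrays were scaled to an equal median over the 37641 soybean probe sets, and log2(scaled signal + 16) was analysed. Values below are scaled signals unless called differences, 2 mm and 5 mm stand for the bean stages, and a difference is the average of the young bean stage means minus the average of the end stage means on that log2 scale, with its standard error (SE). The added 16 understates the fold of dim transcripts. Nothing in the labels ties the replicates to different plants, and p-values thus measure only how far these samples spread. A probe set was called higher when limma's adjusted p for this difference was under 0.05 and both bean stage means lay above both end stage means, and lower in the mirror case. The gap is the distance between the nearest stage means of the sides, so it gives the smallest of the 4 differences between a bean stage and an end stage. Where a stage was not above background on either of its arrays, the fold is computed against that background and is given as "at least".

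Of 33625 probe sets tested, 5213 (15.5%) were called higher in young beans and 4360 (13.0%) were called lower. A stricter requirement, adjusted p under 0.05 in each of the 4 pairs of a bean stage and an end stage, was met by 1524 (4.53%) higher and 1195 (3.55%) lower probe sets. In this stricter set each probe set passed within both label batches and within both levels of the hybridization controls. Most calls were small. The gap reached 2-fold for 370 higher and 277 lower probe sets, 4-fold for 111 and 39, and 8-fold for 46 and 6. The widest gap was 54.8-fold among higher probe sets, for a gene that has only a locus number. Among lower probe sets it was at least 10.8-fold, for the chalcone reductase gene CHR5. No overlap between the 4 young bean arrays and the 4 end stage arrays was seen for 3711 (11.0%) higher and 2839 (8.44%) lower probe sets. Of the 23394 pathogen probe sets, which should match no soybean transcript, limma called 0 in either direction with both stages agreeing and 1 without that requirement, while 3148 (13.5%) had an unadjusted p under 0.05. Of these 3148, 3065 were lower in young beans, and the median difference of all pathogen probe sets was -0.09. The background on the fully grown arrays was the highest, and its part in the dim lower calls was not tested.

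How many transcripts counted as lower depended on the scaling of the arrays. Higher calls made up 54.5% of all calls after median scaling, 60.9% after quantile normalization, 94.8% with the values as deposited and 95.8% after scaling to the hybridization controls. The median difference over all tested probe sets was 0.66 as deposited and 0.67 on the control scale, against -0.03 after median scaling. All 370 higher calls with a gap of at least 2-fold were kept under each of these scalings. Of the 277 lower calls of that size, 277 were kept after quantile normalization, 201 as deposited and 129 on the control scale. Lower calls were also dimmer. Of the lower calls, 3054 had all 4 end stage arrays above their own background and 2723 had them above the highest background of any array, whereas 5170 and 4896 of the higher calls had all 4 young bean arrays above those limits.

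**Figure D1:**
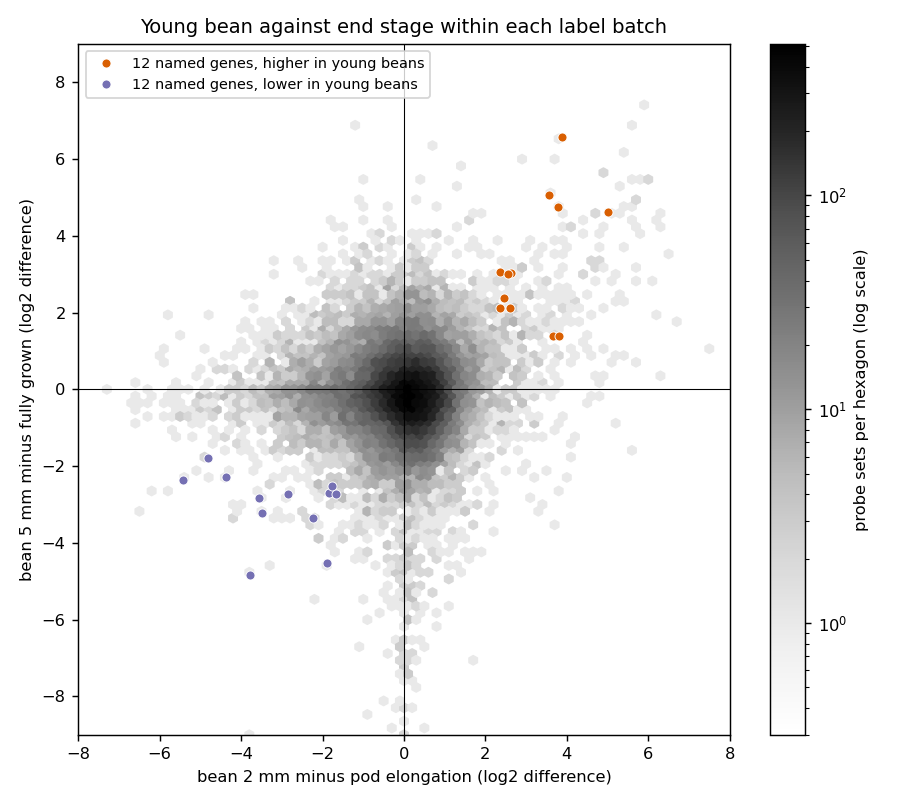
Differences between a young bean stage and an end stage within each label batch, on the log2(scaled signal + 16) scale, for 33625 tested probe sets. The horizontal axis is bean 2 mm minus pod elongation, the vertical axis is bean 5 mm minus fully grown, grey shading counts probe sets per hexagon, and coloured points are the 12 higher and 12 lower named genes with the widest gap, which lie to the upper right and lower left of 0, and probe sets beyond the axes are not drawn.

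**Figure D2:**
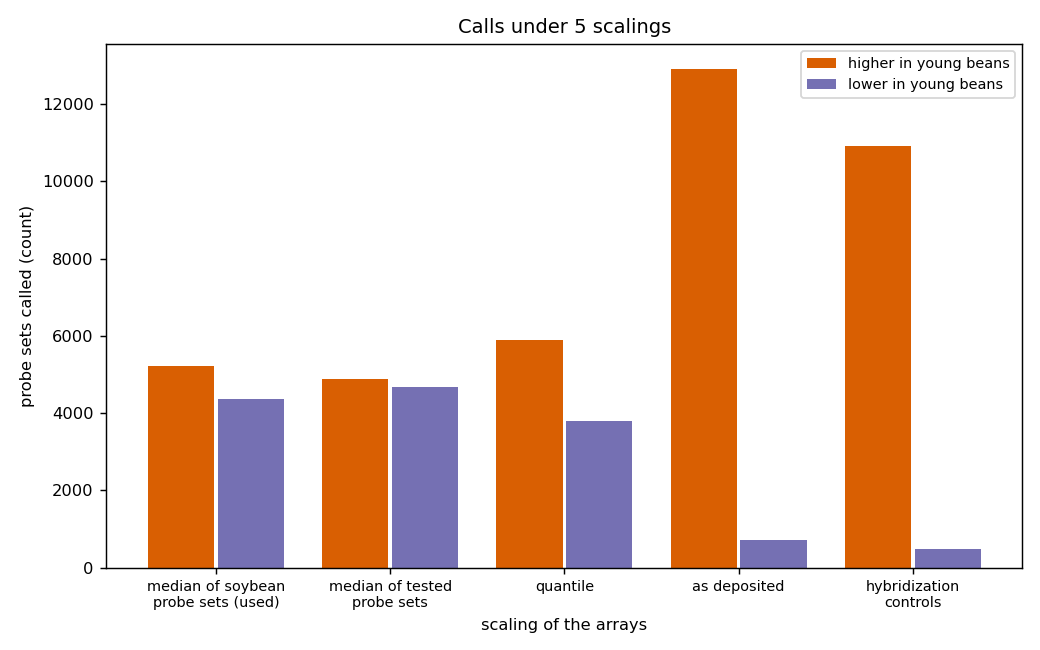
Number of probe sets called higher and lower in young beans, on a linear axis from 0, under 5 ways of scaling the arrays. Higher calls numbered 5213 and lower calls 4360 with the scaling used here, against 12907 and 702 with the values as deposited.

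Genes are named below when the platform annotation gives a probe set a single symbol that is not a locus number, with the tested probe set of highest mean log2 value standing for the gene. Called genes beyond the 24 below are the up to 4 of each list with the widest gap. This left 951 genes, of which 139 (14.6%) were called higher and 161 (16.9%) lower, with a median difference of -0.15. The 4 young bean arrays did not overlap the 4 end stage arrays for 96 (10.1%) of them on the higher side and 109 (11.5%) on the lower side. In all 4 stage pairs, 53 (5.57%) were called higher and 63 (6.62%) lower. With locus numbers included, 815 (14.0%) of 5812 genes were called higher and 926 (15.9%) lower, 256 (4.40%) and 315 (5.42%) in all 4 pairs, and 548 (9.43%) and 619 (10.7%) did not overlap. Counts of called genes in each list below are to be set against the 14.6% and 16.9% over all named genes, and no list was tested as a set. The 12 higher and 12 lower genes with the widest gap are SC-03, ANS2, ANR1, DFR2, SCB1, FRD3a, MYB73, GASA3, LAX11, GASA29, MADS28 and DFR1, and CHR5, WIN, KTI-2, CYP83E8, GSTU28, VPE2, CYP93E1, PRP2, CYP71A10, EN2, MYB92 and SAN1A. All 24 were called in all 4 stage pairs, and all 24 kept their call in every alternative in which their probe set was tested. These 24 were chosen from the same arrays by the gap, the smallest of the 4 pair differences. Passing in all pairs and keeping the call thus follow largely from that choice and are no separate support. The probe sets of CHR5, WIN, KTI-2, CYP83E8, GSTU28, VPE2, CYP93E1, PRP2 and MYB92 can match several transcripts. They were therefore not tested in the alternative that left out such probe sets. The probe sets of the 12 higher genes and of CYP71A10, EN2 and SAN1A do not have this limit. The 4-pair call was lost only for KTI-2, CYP83E8, EN2 and SAN1A, and only on the control scale. Of the genes described below, some had further tested probe sets that did not share the call. For BBI-1, HSF-01, MIPS, NAC19, GSTU9, GAI1, CCR and 4CL1, 1 of 2 probe sets carried it. For AOS1, SUT1 and WRKY27 it was 2 of 3, and for RCA14 and BRI1B 1 of 3. The other probe sets of these genes were not called in the opposite direction.

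**Figure D3:**
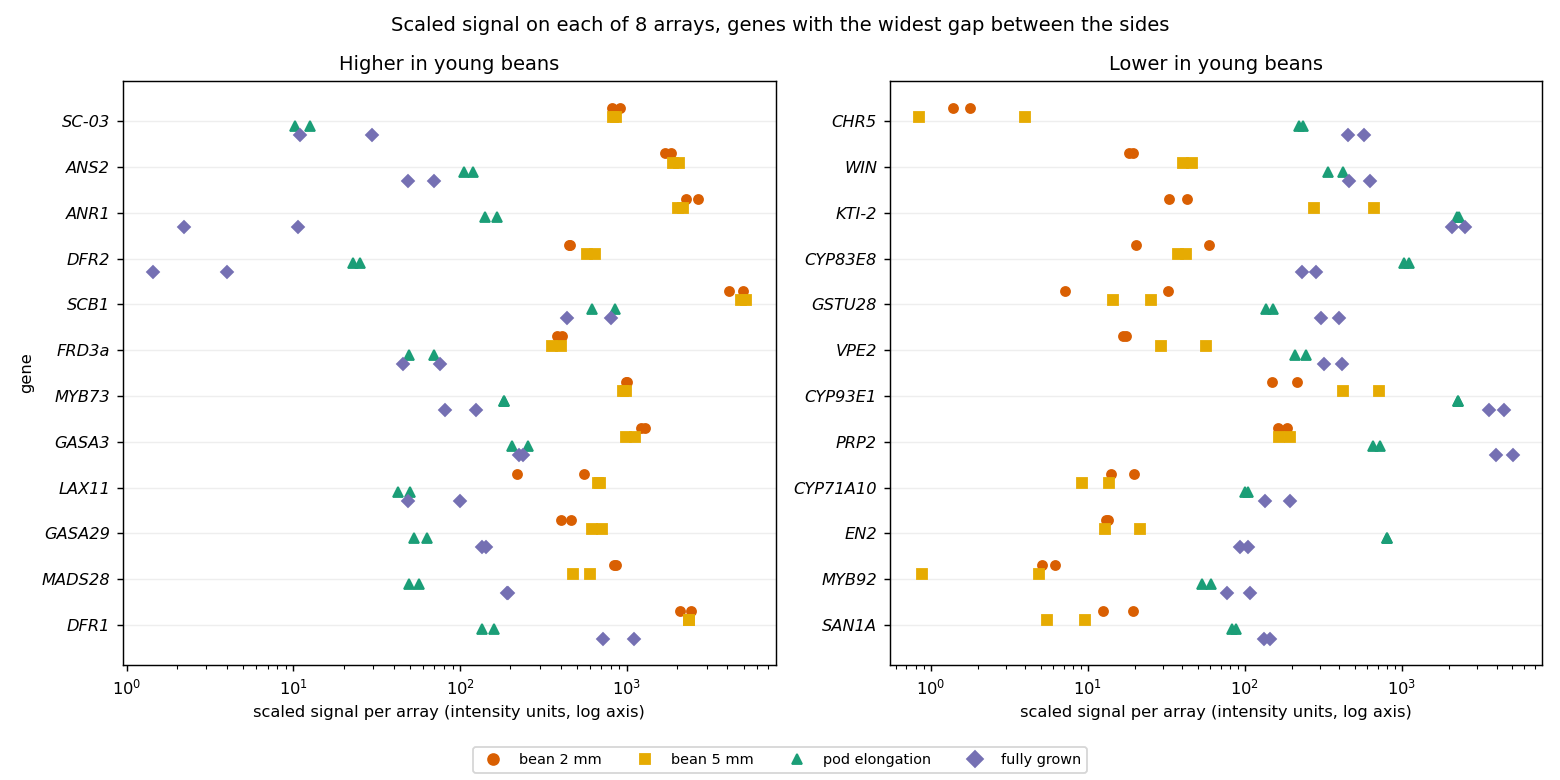
Scaled signal on each of the 8 arrays, on a log axis, for the 12 higher genes (left) and the 12 lower genes (right) with the widest gap between the sides. Each point is 1 array, with bean 2 mm and bean 5 mm drawn above pod elongation and fully grown in each row. In every row the 4 young bean points lie clear of the 4 end stage points, which the choice of genes by gap favours.

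Genes of the branch to anthocyanidins and proanthocyanidins were mostly highest in young beans. Of its 7 tested genes, 6 were called higher and 1 lower, with a median difference of 2.59, and 4 of the 6 and the lower gene passed in all 4 stage pairs. ANR1 encodes anthocyanidin reductase, which makes the epicatechin units of proanthocyanidins. Its signal was 2252 and 2656 at 2 mm and 2156 and 2027 at 5 mm, against 140.2 and 166 at pod elongation and 10.7 and 2.21 at fully grown. The young bean arrays were all high, pods were intermediate, and fully grown beans were not above background. The gap was 12.5-fold, and the difference was 5.22 ± 0.13 (SE), at least 30.4-fold (adjusted p = 4.04e-08).

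ANS2, an anthocyanidin synthase gene, had signals of 1691 and 1833 at 2 mm and 2043 and 1891 at 5 mm, against 119 and 106 at pod elongation and 48.4 and 69.4 at fully grown. The sides did not overlap, the gap was 13.9-fold and the difference was 4.27 ± 0.11 (adjusted p = 3.91e-08). Dihydroflavonol reductase, the enzyme before anthocyanidin synthase, was represented by DFR1 and DFR2. DFR2 had 450.3 and 458 at 2 mm and 644 and 572 at 5 mm, against 22.9 and 25.1 at pod elongation and 3.99 and 1.43 at fully grown, a gap of 11.8-fold and a difference of at least 14.8-fold (adjusted p = 2.95e-08). DFR1 had 2092 and 2409 at 2 mm and 2346 and 2339.9 at 5 mm, against 159 and 136 at pod elongation and 719.6 and 1099 at fully grown. Both genes were highest in young beans, but DFR1 was still well measured in fully grown beans, with a gap of 2.5-fold, where DFR2 was not above background.

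The remaining members of the branch are given by stage mean and were singled out after their values were seen. LAR1, leucoanthocyanidin reductase, averaged 71.6 at bean 2 mm and 62.6 at bean 5 mm, against 0.768 at pod elongation and 36.6 at fully grown (difference 1.51, adjusted p = 0.000118). F3H, flavanone 3-hydroxylase, acts upstream of several branches and averaged 2499.8 and 2875 in the bean stages, against 1953 at pod elongation and 1394 at fully grown (difference 0.71, adjusted p = 0.00398). Neither passed in all 4 stage pairs. UGT78K1 encodes a glucosyltransferase that attaches glucose to anthocyanidins. It ran the other way, with means of 21.3 at bean 2 mm and 56.3 at bean 5 mm, against 191 at pod elongation and 163 at fully grown (difference -1.88, adjusted p = 6.63e-06). On the control scale 6 members were called higher and 0 lower.

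Calls in the isoflavone and flavonol list were mostly lower. The list also holds chalcone synthase and chalcone isomerase genes, which act before these branches part from the one to anthocyanidins. Among them CHI1A, CHI1B1, CHI3A1 and CHS8 were called lower, CHI2-A was called higher, and CHS1 and CHI4A were not called. Of all 22 tested genes of the list, 1 was called higher, 9 lower and 12 neither, with a median difference of -0.61. With the values as deposited the counts were 4 higher and 3 lower, and on the control scale 4 higher and 1 lower, so only part of the lower calls held across scalings. Chalcone reductase acts with chalcone synthase to make the precursor of the isoflavone daidzein. CHR5 had signals of 1.39 and 1.79 at 2 mm and 0.845 and 4 at 5 mm, against 221 and 233 at pod elongation and 572 and 454 at fully grown. It was not above background on any young bean array and was well measured on every end stage array. The gap was at least 10.8-fold and the difference at least 16.1-fold (adjusted p = 4.44e-08), although its probe set can match several transcripts.

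CHR1, another chalcone reductase gene, had 5.83 and 9.45 at 2 mm and 13.8 and 14.6 at 5 mm, against 79.6 and 59.3 at pod elongation and 51.9 and 47.1 at fully grown (gap 2.17-fold, adjusted p = 1.78e-05), a call lost on the control scale. FLS1, flavonol synthase, had 9.91 and 11.1 at 2 mm and 34.1 and 35.2 at 5 mm, against 404 and 369 at pod elongation and 139.8 and 127 at fully grown. The sides did not overlap, the gap was 2.95-fold and the difference was -2.74 ± 0.09 (adjusted p = 1.56e-07), but the call was lost on the control scale. The single gene called higher was CHI2-A, a chalcone isomerase, with 719 and 755 at 2 mm and 729 and 682 at 5 mm, against 306 and 322 at pod elongation and 153 and 197 at fully grown (gap 2.18-fold, adjusted p = 3.14e-06).

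The isoflavone synthase genes IFS1 and IFS2 were not called, since their stage means in young beans were not all below those in pods. IFS1 averaged 7.54 at bean 2 mm and 34 at bean 5 mm, against 6.8 at pod elongation and 768 at fully grown. IFS2 averaged 12.2 and 27.6 in the bean stages, against 21.9 at pod elongation and 468 at fully grown. The highest mean of both was in fully grown beans, and both were chosen for mention after their values were seen.

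Among the enzymes that feed the flavonoid pathway and lignin, 1 of 8 tested genes was called higher, close to the 14.6% of all named genes, and 2 lower. The higher gene was 4CL4, one of the 4-coumarate:CoA ligases that activate phenolic acids. Its signal was 302 and 269 at 2 mm and 312 and 241 at 5 mm, against 105 and 101 at pod elongation and 24.3 and 19.6 at fully grown (gap 2.44-fold, adjusted p = 1.2e-06). The lower genes were CCR, cinnamoyl-CoA reductase of the lignin pathway, with a difference of -0.80, and 4CL1, with -0.69. Both differences turned positive as deposited (0.14 for CCR and 0.18 for 4CL1) and on the control scale (0.24 and 0.22).

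**Figure D4:**
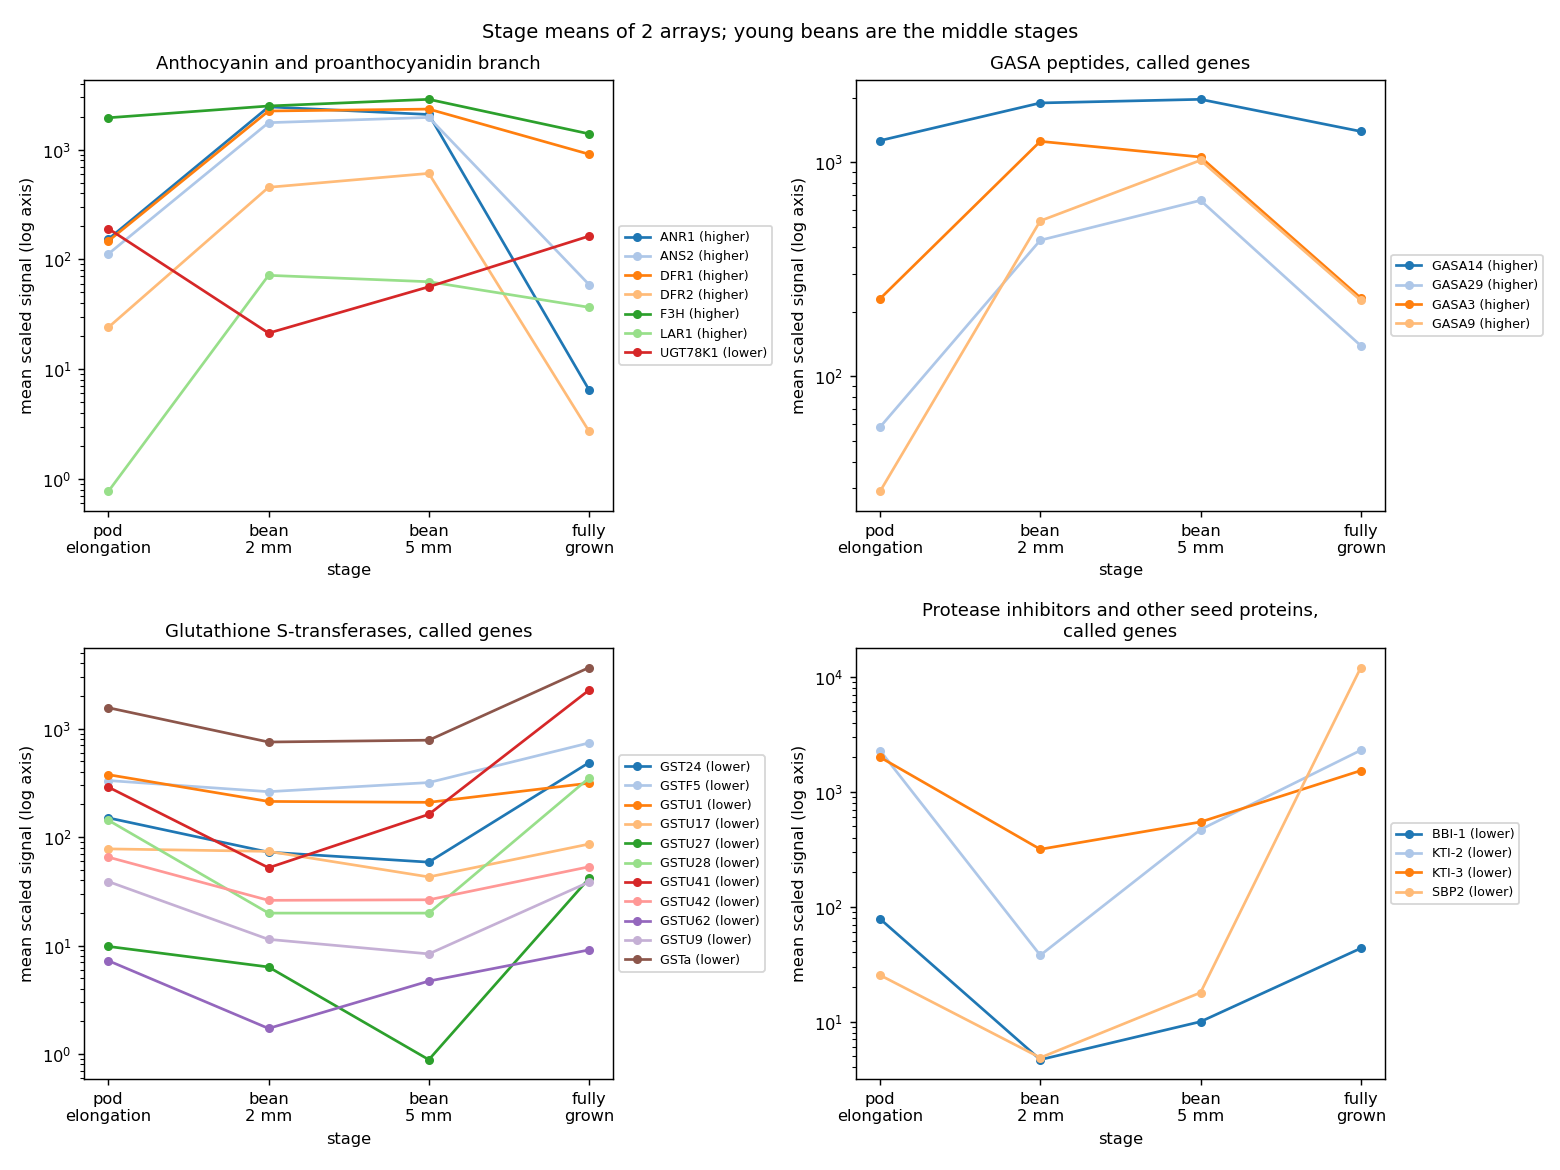
Mean scaled signal of 2 arrays at each stage, on a log axis, for the called genes of 4 lists, with the stages in developmental order and the young beans in the middle. Anthocyanin and proanthocyanidin genes other than UGT78K1 and the 4 called GASA genes peak at the bean stages, while glutathione S-transferases and the called protease inhibitor and seed protein genes are lowest there.

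Genes of the seed coat and of transport were among the other genes with a wide gap. SCB1 encodes a BURP-domain protein of the soybean seed coat. It had 4099 and 4969.8 at 2 mm and 4819 and 5175 at 5 mm, against 844 and 618 at pod elongation and 434 and 807 at fully grown (gap 6.13-fold, difference 2.83 ± 0.19, adjusted p = 5.39e-06). HPS, the hydrophobic protein from soybean that is deposited on the seed surface, did not follow this course. It had 7.2 and 5.2 at 2 mm and 1386 and 1919 at 5 mm, against 125 and 147 at pod elongation and 7294 and 7008 at fully grown, and was not called. The seed coat peroxidase gene Ep, singled out after its values were seen, was not called either, with means of 752 at bean 2 mm and 1061 at bean 5 mm, against 70.7 at pod elongation and 7599.7 at fully grown.

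SC-03 had the widest gap of the named higher genes. Its signal was 912 and 817 at 2 mm and 860.1 and 829 at 5 mm, against 10.2 and 12.6 at pod elongation and 10.9 and 29.4 at fully grown. The gap was 24.6-fold and the difference was 4.81 ± 0.15 (adjusted p = 1.22e-07), and bean 5 mm minus bean 2 mm was -0.03 with an adjusted p of 0.939. The bean stages were thus level, and all 4 end stage arrays lay far below them. FRD3a is related to transporters that export citrate and help iron move through the plant. It had 407 and 381 at 2 mm and 403 and 353 at 5 mm, against 69.6 and 49 at pod elongation and 75.6 and 45.1 at fully grown, a gap of 5.25-fold (adjusted p = 3.23e-06).

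LAX11 belongs to the AUX1/LAX family of auxin influx carriers. It had 549 and 219 at 2 mm and 690.3 and 673 at 5 mm, against 49.8 and 42.4 at pod elongation and 48.4 and 100.3 at fully grown (gap 4.21-fold, adjusted p = 4.77e-05). Its bean 2 mm replicates differed from each other more than those of the other stages did, yet neither overlapped the end stages. Of the 8 auxin genes tested, 2 were called higher and 0 lower, with a median difference of 0.31. The other called gene, ADR12, had a gap of only 1.08-fold and overlapping arrays.

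The GASA genes encode small cysteine-rich peptides, many of which respond to gibberellin. Of 16 tested, 4 were called higher and 0 lower, all 4 in all stage pairs, while the median difference of the list was -0.29. GASA3 had 1216 and 1286 at 2 mm and 1123 and 991 at 5 mm, against 256 and 204 at pod elongation and 239 and 226 at fully grown, a gap of 4.32-fold (adjusted p = 4.96e-07). The end stage arrays overlapped each other, which was not so for the next 2 genes. GASA29 had 462 and 403 at 2 mm and 613 and 712 at 5 mm, against 52.9 and 62.9 at pod elongation and 143 and 135 at fully grown (gap 2.89-fold, adjusted p = 4.01e-07). GASA9 had 531 and 532 at 2 mm and 1027 and 1015 at 5 mm, against 30 and 28.1 at pod elongation and 133 and 319.8 at fully grown (gap 2.45-fold, adjusted p = 9.25e-06). GASA14 had the narrowest gap of the 4, 1.35-fold, and lost the call in all 4 stage pairs as deposited and on the control scale, where its overall call was kept.

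Of 8 gibberellin and cytokinin genes, 2 were called higher (GAI1, a DELLA repressor of gibberellin signalling, and GA20OX3, a gibberellin 20-oxidase) and 1 lower (SLR1), and none of these passed in all 4 stage pairs. SLR1 was not above background at either bean stage or in fully grown beans, and its probe set can match several transcripts. Its call was lost as deposited and on the control scale. Of 10 brassinosteroid and ethylene genes, 3 were called higher and 1 lower, with gaps of 1.01-fold to 1.31-fold. Other hormone genes differed within a side. CKX3, a cytokinin oxidase gene singled out after its values were seen, was not called, with means of 692 at bean 2 mm and 87.9 at bean 5 mm, against 345 at pod elongation and 43.2 at fully grown. The ethylene receptor gene EIN4 had 121 and 112 at 2 mm and 87.1 and 79.6 at 5 mm, against 32.4 and 29.6 at pod elongation and 52.5 and 68.4 at fully grown (adjusted p = 0.000117). BRI1B, a brassinosteroid receptor gene and the lower call, had a difference of -0.29 that became 0.55 as deposited and 0.58 on the control scale.

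AOS1, an allene oxide synthase of jasmonate synthesis, was the only higher call among 16 genes of lipoxygenases, jasmonate synthesis and vegetative storage. It had 427 and 293 at 2 mm and 341 and 303 at 5 mm, against 115 and 129.6 at pod elongation and 125 and 109.9 at fully grown (gap 2.44-fold, adjusted p = 3.18e-05). The lower call was LOX10, whose 4 young bean signals of 1.26 to 5.93 were below those of the end stages, 8.15 to 11.7. It was not above background at bean 5 mm or in fully grown beans, so that its gap to fully grown beans is not measured. The call was lost as deposited and on the control scale.

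Transcription factors split between both directions, as did all named genes (14.6% called higher and 16.9% lower). Of 7 MADS-box genes, 3 were called higher and 0 lower, all in all 4 stage pairs, with a median difference of 0.66. MADS28 had 832 and 862 at 2 mm and 597 and 474 at 5 mm, against 56.4 and 49.2 at pod elongation and 194 and 191 at fully grown (gap 2.63-fold, adjusted p = 2.84e-07). NMH7 had 119 and 156 at 2 mm and 88.7 and 65.1 at 5 mm, against 30.6 and 32.3 at pod elongation and 14.7 and 17.6 at fully grown (gap 1.94-fold). SEP1 had 216 and 207 at 2 mm and 169 on both 5 mm arrays, against 115 and 118 at pod elongation and 114 and 112 at fully grown (gap 1.4-fold). The flower genes AG1 and AP1A, of the same family, were not called. AP1A had 8.38 and 35.5 at 2 mm and 6.46 and 8.38 at 5 mm, against 205 and 200.5 at pod elongation and 19.7 and 12.8 at fully grown.

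Of 58 MYB genes, 12 were called higher and 9 lower, with a median difference of 0.09, and 4 and 2 passed in all stage pairs. Over all named genes 14.6% were called higher and 16.9% lower, and the share of MYB genes called lower was close to the latter. As deposited 17 were higher and 2 lower, and on the control scale 16 and 1. MYB73 had 990.2 and 995 at 2 mm and 984 and 940.4 at 5 mm, against 182 on both pod elongation arrays and 80.8 and 124 at fully grown (gap 4.94-fold, adjusted p = 5.01e-07). The 4 young bean signals of MYB73 were nearly equal. LCL3, a gene related to the circadian clock genes LHY and CCA1, had 81.4 and 69 at 2 mm and 54.6 and 47.1 at 5 mm, against 15.1 and 11.2 at pod elongation and 16.3 and 16.3 at fully grown (gap 2.07-fold). MYB92 went the other way, with 5.1 and 6.17 at 2 mm and 0.874 and 4.9 at 5 mm, against 60.5 and 53.7 at pod elongation and 107 and 77.4 at fully grown (gap at least 3.26-fold, adjusted p = 3.66e-06). It was not above background in young beans.

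Of 47 WRKY genes, factors often tied to defence and senescence, 3 were called higher and 8 lower, a lower share close to the 16.9% over all named genes, and 5 were higher and 0 lower both as deposited and on the control scale. WRKY29 was higher under each scaling, with 310 and 325 at 2 mm and 212 and 176 at 5 mm, against 32.7 and 34.7 at pod elongation and 71.7 and 81.3 at fully grown (gap 2.27-fold, adjusted p = 1.05e-06). WRKY27 had 17.2 and 27.8 at 2 mm and 23.8 and 7.5 at 5 mm, against 256 and 288 at pod elongation and 57.9 and 59.6 at fully grown (adjusted p = 1.88e-05), and lost its call on both of those scales. Of 26 NAC, DREB and ERF genes, 0 were called higher and 9 lower, with a median difference of -0.40. As deposited these became 5 higher and 3 lower, and on the control scale 4 and 1. NAC27 had 10.8 and 7.83 at 2 mm and 14.6 and 14.3 at 5 mm, against 74.1 and 90.3 at pod elongation and 51 and 44.5 at fully grown (gap 2.09-fold), a call that was lost on the control scale. NAC19 kept its call under each scaling, with young bean signals of 17.3 to 41.3 and end stage signals of 51.4 to 252.

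Of 55 bZIP genes, 7 were called higher and 4 lower. The share called higher was close to the 14.6% over all named genes, and the 7 became 19 as deposited. BZIP125 had the widest gap, with 444 and 513 at 2 mm and 318 and 286 at 5 mm, against 129 and 102 at pod elongation and 196 and 124 at fully grown (gap 1.85-fold, adjusted p = 6.11e-05). The lower gene BZIP95 turned positive as deposited.

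Glutathione S-transferases had more lower calls than any other list. These enzymes conjugate glutathione to reactive or foreign compounds. Of 22 tested, 0 were called higher and 11 lower, with a median difference of -0.60, and 6 passed in all 4 stage pairs. As deposited 3 were higher and 4 lower, and on the control scale 2 and 4. GSTU28 had 7.16 and 32.6 at 2 mm and 14.4 and 25.3 at 5 mm, against 151 and 136 at pod elongation and 306 and 395 at fully grown (gap 4.49-fold, adjusted p = 1.56e-05). GST24 had 68.7 and 76.4 at 2 mm and 36.9 and 80.4 at 5 mm, against 149 and 151 at pod elongation and 503 and 468 at fully grown (gap 1.88-fold, adjusted p = 3.2e-05). Both kept their call under each scaling. GSTU9 (gap 1.99-fold) lost it as deposited and on the control scale, and GSTa (gap 1.99-fold) on the control scale.

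Cytochrome P450 enzymes showed a like count, with 1 of 20 called higher and 9 lower and a median difference of -0.70. Without fully grown replicate 2, 4 were higher, and 2 were higher without bean 5 mm replicate 2 or pod elongation replicate 2. As deposited 5 were higher and 4 lower, and on the control scale 5 and 3. CYP93E1 hydroxylates beta-amyrin on the way to soyasaponins. It had 148 and 214 at 2 mm and 423 and 709 at 5 mm, against 2264 and 2287 at pod elongation and 4469 and 3557 at fully grown. The sides did not overlap, the gap was 4.06-fold (adjusted p = 1.76e-06), and all 3 of its tested probe sets were called lower. CYP83E8 had 20.2 and 59.3 at 2 mm and 37.5 and 42.4 at 5 mm, against 1111 and 1032 at pod elongation and 284 and 232 at fully grown (gap 4.88-fold, adjusted p = 3.32e-06). CYP71A10 had 14.1 and 19.8 at 2 mm and 9.18 and 13.6 at 5 mm, against 99.9 and 104 at pod elongation and 135 and 194 at fully grown (gap 3.59-fold, adjusted p = 3.13e-06). CYP72A67, with a gap of 2.78-fold, lost its call on the control scale.

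Protease inhibitors and other seed proteins gave 0 higher and 4 lower calls among 11 genes, with a median difference of -2.74. The count held as deposited and fell to 2 on the control scale. Kunitz trypsin inhibitors are abundant proteins of mature soybeans, and KTI-2 was the inhibitor with the widest gap. It had 42.8 and 32.9 at 2 mm and 274 and 665 at 5 mm, against 2323 and 2244 at pod elongation and 2082 and 2509.5 at fully grown (gap 5.18-fold, difference -3.90 ± 0.23, adjusted p = 2.79e-06). The end stages overlapped, and bean 5 mm was 8.29-fold above bean 2 mm (adjusted p = 0.00075). KTI-3 had 349 and 284 at 2 mm and 452 and 639.6 at 5 mm, against 2052 and 1944 at pod elongation and 1506 and 1551 at fully grown (gap 2.79-fold, adjusted p = 2.76e-06). BBI-1, of the Bowman-Birk inhibitors, had 4.46 to 11.8 on the young bean arrays and 40.1 to 78.9 on the end stage arrays. Both KTI-3 and BBI-1 lost their call on the control scale.

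SBP2, the sucrose binding protein, was called lower with a difference of -4.76, with its highest values in fully grown beans. It had 2.96 and 6.76 at 2 mm and 7.84 and 28 at 5 mm, against 27.5 and 23.3 at pod elongation and 10961 and 13099 at fully grown, so that 1 bean 5 mm array overlapped the pods. The gap was only 1.28-fold, and bean 5 mm against pods had an adjusted p of 0.306. A control probe set named for a sucrose binding protein read 7.86 and 4.63 at 2 mm and 243 and 1616 at 5 mm, against 45.8 and 45.0 at pod elongation. By that probe set, bean 5 mm lay above pods. Storage protein genes were also high in fully grown beans. Of 10 storage globulin and 2S albumin genes, 1 (GY7, not above background at either bean stage or in pods, so that its gap to pods is not measured) was called lower and 9 were not called. All 9 lay below fully grown beans at both bean stages (adjusted p under 0.05 in each pair) without both bean stages lying below pods. Stage means of the 10 genes reached 5.8 at bean 2 mm, 282 at bean 5 mm and 4.04 at pod elongation, while in fully grown beans they ranged from 48.4 to 17632. Of 29 late embryogenesis and seed maturation genes, 2 were called lower (LEA-2 and PGMPM19). The other 27 lay below fully grown beans at both bean stages without both bean stages lying below pods. LEA-2 turned positive as deposited (0.10) and on the control scale (0.18). PGMPM19 was not above background at either bean stage and had 8.7 and 7.4 at pod elongation, against a mean of 15066 in fully grown beans. Its gap, to pods, was at least 1.07-fold, and bean 5 mm against pods had an adjusted p of 0.0734.

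The 3 embryo regulators tested were not called either, although their differences were positive. LEC1-A, a subunit of the NF-Y factor that directs embryo identity, had 217 and 141 at 2 mm and 695 and 740.1 at 5 mm, against 0.25 and 2.54 at pod elongation and 189.8 and 207 at fully grown. It was above background in every stage but pods, and fully grown beans overlapped bean 2 mm. WRI1B, related to the oil regulator WRINKLED1, had 63.1 and 47.9 at 2 mm and 147 and 182 at 5 mm, against 3.87 and 2.51 at pod elongation and 108 and 151 at fully grown. Of 19 fatty acid and oil genes, 3 were called higher (HAD1, ACCA-1 and FAD8.2), close to the 14.6% of all named genes, and 0 lower. As deposited and on the control scale 9 were higher. ACCA-1, a subunit of acetyl-CoA carboxylase, had 184 and 180.3 at 2 mm and 197 and 194 at 5 mm, against 93.3 and 90 at pod elongation and 149 and 113 at fully grown (gap 1.36-fold, adjusted p = 0.000391). FAD2-1A, the seed oleate desaturase, had 23.5 and 23.8 at 2 mm and 599 and 1036 at 5 mm, against 2.44 and 0.576 at pod elongation and 10194 and 11200.1 at fully grown, and was not called.

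Cell wall genes diverged by member. Of 11 tested, 2 were called higher and 4 lower. PRP1 and PRP2 encode related proline-rich wall proteins, and the probe sets standing for them moved in opposite directions. Both probe sets can match several transcripts, so related genes may share in either signal. PRP1 had 493 and 519 at 2 mm and 459 and 471 at 5 mm, against 111 and 147 at pod elongation and 154 and 242 at fully grown (gap 2.29-fold, adjusted p = 3.5e-05). PRP2 had 163 and 186 at 2 mm and 194 and 166 at 5 mm, against 723 and 653 at pod elongation and 5075 and 3972 at fully grown (gap 3.59-fold, difference -3.21 ± 0.11, adjusted p = 1.49e-07). The expansins, which loosen walls, split likewise. EXP2 had 442 and 366 at 2 mm and 283 and 241 at 5 mm, against 110.1 and 91.8 at pod elongation and 136 and 102 at fully grown (gap 2.07-fold). EXP1 had 7.01 to 9.96 on the young bean arrays and 35.8 to 64.3 on the end stage arrays (gap 2.13-fold). The directions of these 4 genes held under each scaling, although EXP1 then missed 1 or more of the stage pairs as deposited and on the control scale.

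Of 18 aquaporins, channels for water and small solutes, 3 were called higher and 1 lower. The share called higher was close to the 14.6% over all named genes, and the higher calls became 7 as deposited and 8 on the control scale. PIP2-2 had 239 and 262 at 2 mm and 153 and 133 at 5 mm, against 65 and 65.3 at pod elongation and 63.9 and 49.3 at fully grown (gap 1.95-fold, adjusted p = 8.63e-06). NIP1-8 had 61.1 and 73 at 2 mm and 77.3 and 92.5 at 5 mm, against 498 and 500 at pod elongation and 328 and 264 at fully grown (gap 3.09-fold, adjusted p = 1.11e-06), a call lost as deposited and on the control scale. N-26 carries a nodulin name and had 791 and 776 at 2 mm and 430 and 371 at 5 mm, against 5.21 and 5.23 at pod elongation and 212 and 205 at fully grown (gap 1.85-fold, difference at least 8.23-fold, adjusted p = 5.41e-08).

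Of 12 genes of sugar transport and sucrose cleavage, 1 was called higher and 2 lower, the latter close to the 16.9% of all named genes. As deposited 6 were higher and 0 lower. SUT1, a sucrose transporter, had 18.8 and 33.8 at 2 mm and 38.9 and 56 at 5 mm, against 90.7 and 89.5 at pod elongation and 134 and 97.1 at fully grown (gap 1.69-fold, adjusted p = 0.000267). The call was lost as deposited and on the control scale. Of 19 nitrogen and sulphur assimilation genes, 4 were called higher and 1 lower, and 8 were higher and 0 lower both as deposited and on the control scale. GDH2, a glutamate dehydrogenase, had 284 and 221 at 2 mm and 256 and 259 at 5 mm, against 87.8 and 97.5 at pod elongation and 187 and 138 at fully grown (gap 1.51-fold). NIR, nitrite reductase and the lower gene, had 5.47 to 13.1 on the young bean arrays and 20 to 121 on the end stage arrays, and lost its call as deposited and on the control scale.

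Of 9 inositol phosphate and galactinol genes, 3 were called higher and 2 lower. GOLS, galactinol synthase of raffinose oligosaccharide synthesis, had 4.58 and 6.29 at 2 mm and 5.46 and 5.56 at 5 mm, against 137 and 181 at pod elongation and 27.1 and 27.6 at fully grown (gap at least 1.94-fold, adjusted p = 2.61e-06). It was not above background in young beans, and the call was lost on the control scale. MIPS, myo-inositol phosphate synthase, had 1618 and 1750.4 at 2 mm and 2313 and 2818 at 5 mm, against 1612 and 1419.6 at pod elongation and 1269.7 and 1285 at fully grown, with a gap of 1.11-fold.

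Photosynthesis genes gave 0 higher and 3 lower calls of 7. The lower calls numbered 0 as deposited and on the control scale, where 1 gene was called higher, and 5 without fully grown replicate 1. RCABETA, a Rubisco activase, had 129.6 and 160.3 at 2 mm and 96.5 and 98 at 5 mm, against 394 and 334 at pod elongation and 339.8 and 296 at fully grown (gap 2.08-fold, adjusted p = 9.26e-06). PETC, the Rieske protein of the cytochrome complex, had 167 and 181 at 2 mm and 396 and 422 at 5 mm, against 589 and 571 at pod elongation and 516 and 618 at fully grown (gap 1.37-fold). The chlorophyll-binding protein gene CAB3 was not called.

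Several genes with a wide gap belong to none of these groups. VPE2, a vacuolar processing enzyme that matures seed proteins, had 17.5 and 16.8 at 2 mm and 29.4 and 56.7 at 5 mm, against 207 and 244 at pod elongation and 321 and 415 at fully grown (gap 4.19-fold, adjusted p = 2.28e-06). WIN had 19.5 and 18.3 at 2 mm and 40.1 and 46.1 at 5 mm, against 336 and 421 at pod elongation and 625 and 457 at fully grown (gap 6.64-fold, adjusted p = 2.51e-07). Neither overlapped between the sides, and both were higher in fully grown beans than in pods (adjusted p = 0.0344 for WIN and 0.0283 for VPE2). EN2 instead was higher in pods. It had 13 and 13.4 at 2 mm and 12.8 and 21.6 at 5 mm, against 801 and 806 at pod elongation and 105 and 92.8 at fully grown (gap 3.48-fold, adjusted p = 1.53e-07). SAN1A had 19.5 and 12.5 at 2 mm and 9.62 and 5.51 at 5 mm, against 87.3 and 83.1 at pod elongation and 144 and 133 at fully grown (gap 3.18-fold, adjusted p = 1.76e-06).

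The remaining lists gave few calls. Of 16 heat shock genes, 2 were called higher, close to the 14.6% of all named genes, and 0 lower. HSF-01, a heat shock factor, had 1508 and 1712 at 2 mm and 1784 and 1906 at 5 mm, against 763 and 727 at pod elongation and 956 and 1072 at fully grown (gap 1.58-fold). Of 8 sieve element occlusion genes, whose proteins plug the phloem, 3 were called higher and 1 lower, and none passed in all 4 stage pairs. Only 1 was called higher without bean 5 mm replicate 1 or without pod elongation replicate 2, and 0 were lower without bean 2 mm replicate 1 or without fully grown replicate 1. The higher gene SEOF kept its call in 13 of 19 alternatives, and the lower gene SEOS, not above background in fully grown beans, in 12 of 18. Of 5 tubulin and histone genes, 2 were called higher and 1 lower, the lower gene TUBB3 turning positive as deposited (0.40) and on the control scale (0.50). Of 6 nodulin genes, 1 was called higher and 2 lower. None of the 4 ribosomal protein genes was called.

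**Figure D5:**
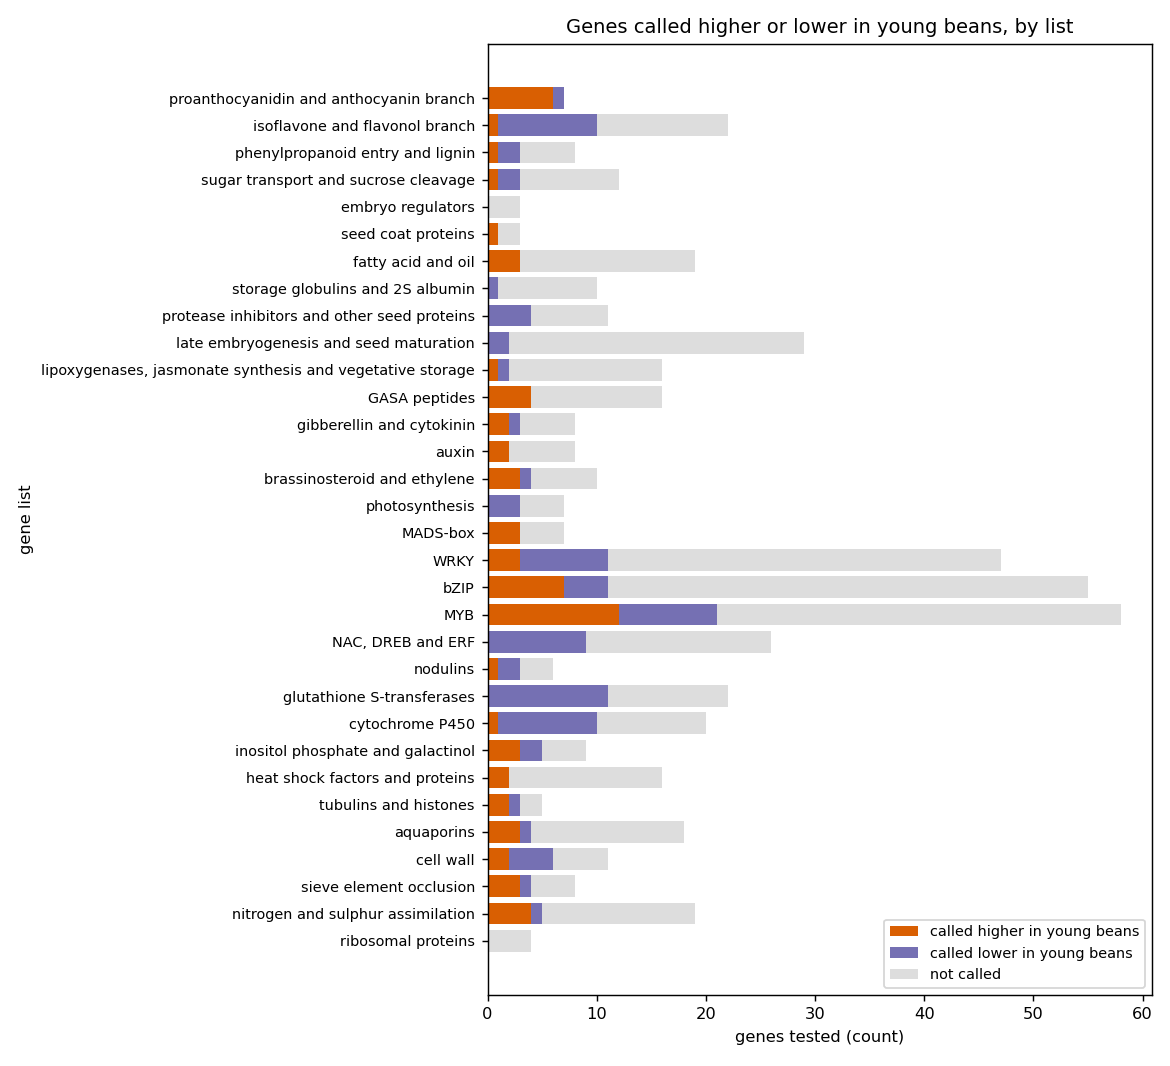
Number of tested genes called higher, called lower or not called in young beans, for each of 32 gene lists, on a linear axis from 0. The anthocyanin and proanthocyanidin list has 6 of 7 genes called higher, and the glutathione S-transferase list has 11 of 22 called lower and 0 higher.

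The bean stages resembled each other more than the end stages did. Arrays of bean 2 mm and bean 5 mm correlated across probe sets at r = 0.930 to 0.956, against 0.660 to 0.666 between pod elongation and fully grown, where probe sets share arrays and are not independent. Among the 5213 higher calls, 80.7% were not called different between bean 5 mm and bean 2 mm, 788 were lower at bean 5 mm and 217 higher. Among the 4360 lower calls, 90.2% were not called different, 321 were higher at bean 5 mm and 108 lower. The end stages differed more often. Among the higher calls, 900 were higher and 1433 lower in fully grown beans than in pods, and among the lower calls 1297 were higher and 1258 lower. A call requires both stages of a side to agree, which favours likeness within a side. These counts among calls are therefore a description and do not show how alike the stages are. Over all tested probe sets, bean 5 mm was called higher than bean 2 mm for 3053 (9.08%) and lower for 3299 (9.81%), and fully grown was called higher than pod elongation for 12976 (38.6%) and lower for 8066 (24.0%). Both of these contrasts cross the label batches and the control levels, which cannot be told apart from stage there.

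Marker lists were used to check the sampled tissues. Of 5 seed coat markers, 4 (SCB1, ANR1, ANS2 and DFR1) were called higher in young beans in all 4 stage pairs, and HPS was not called. The list shares 3 genes with the anthocyanin and proanthocyanidin branch, so those results and seed coat content cannot be told apart. Of 6 filled seed markers, the highest stage mean was 5.8 at bean 2 mm and 282 at bean 5 mm, against 25.4 at pod elongation, while in fully grown beans they ranged from 12030.3 to 22946. At bean 5 mm the glycinin gene GY1 had 13.7 on 1 array and 550.1 on the other, so the replicates differed in this storage protein transcript. Of 4 green pod or leaf markers, 2 (RCABETA and RCA14) were called lower in young beans, and all 4 were lower at bean 2 mm than at pod elongation. Both calls were lost as deposited and on the control scale. RCA14 had a gap of only 1.1-fold and overlapping arrays. Of 3 flower markers, SEP1 was called higher in young beans in all 4 stage pairs, and AG1 and AP1A were not called. AG1 and AP1A were at 0.685 to 7.88 and 6.46 to 35.5 in young beans, against 88.4 to 114 and 200.5 to 205 at pod elongation. Of the embryo markers, LEC1-A, WRI1B and FAD2-1A were measured, all 3 not above background at pod elongation and above it at both bean stages. The part of these tissues in the lower calls, many of which were brightest in pods or in fully grown beans, was not tested.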

How the data were processed

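Total RNA of 8 samples was hybridised to the Affymetrix soybean array, with 2 arrays at each of 4 stages. The deposited table gives the authors' linear signal intensity for each of 61170 probe sets. MAS5 is named for the bean 5 mm and fully grown samples, per the submitters' processing notes. Its version, and how the other 4 arrays were scaled, is not stated in these notes. Median deposited intensities ranged from 18.9 to 107 between arrays.

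Each array was scaled so that the median over 37641 soybean probe sets was 49.45, and log2(signal + 16) was taken. A probe set was tested where it exceeded the 95th percentile of the Phytophthora sojae and Heterodera glycines probe sets on at least 2 of 8 arrays, which left 33625 (89.3%). The 44 probe sets with a Psojae prefix were counted as Phytophthora. A model with 4 stage means was fitted in limma 3.58.1 (R 4.3.3, lmFit and eBayes with trend). P-values were adjusted by the Benjamini-Hochberg method over all tested probe sets. The contrast was the mean of the bean stages minus the mean of the end stages, which gives equal weight to both label batches and both control levels. Tables and figures were made with Python 3.11.15, pandas 2.3.3, numpy 2.4.6 and matplotlib 3.10.9. The fit was tested on simulated data.

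The platform annotation lists 9047 of the soybean probe sets, 8677 with 1 gene and 370 with several, and 8652 of the 8677 matched RefSeq. The other 28594 are unnamed here. Named genes are the 12 higher and 12 lower genes with the widest gap, up to 4 called genes of each list, and up to 2 genes of a list without calls. Members and lists were chosen with earlier results of these data known, and 1 symbol of unsettled function was removed from the isoflavone list after its values were seen. Replicate numbers did not pair samples, since the deviations of same-numbered arrays correlated at -0.047 to 0.103. Precision is limited by the number of arrays. Alternatives covered scaling, the added constant, the filter, the agreement rule, the gap, a replicate block and each array left out.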

Additional observations from a re-analysis of the deposited data

Results flagged for a closer look

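On each side of the comparison, the highest or lowest of the 4 arrays of each named gene was set against the other 3. In 7 of 238 sets of 4 arrays, 1 array stood apart by Dixon's criterion. Its usual rate of about 1 in 20 assumes arrays of 1 kind. Each set here held 2 arrays of each of 2 stages, so that rate does not apply. Among young beans, EN2 stood high at 21.6 on bean 5 mm replicate 2, and GY2, a glycinin gene, stood high at 290.3 on the same array. SEOM stood high at 47.6 and AP1A at 35.5, both on bean 2 mm replicate 2. Among end stages, SC-03 stood high at 29.4 on fully grown replicate 2, the histone gene H1 stood low at 2.25 on fully grown replicate 1, and PIP2-2 stood low at 49.3 on fully grown replicate 2. EN2, SC-03 and PIP2-2 kept their calls with each array left out, whereas SEOM lost its call when that array, pod elongation replicate 2 or bean 5 mm replicate 1 was left out.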

How the results depend on the processing

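Without rescaling, 12907 probe sets passed as higher and 702 as lower, 2610 and 185 in all 4 stage pairs, 9902 called probe sets differed between bean 5 mm and bean 2 mm and 8364 between fully grown and pod elongation. After scaling to the hybridization controls these counts were 10907, 481, 2467, 137, 2369 and 9666. Without agreement of both stages, 8191 were higher and 8966 lower, with 3939 and 12063 differing within the sides. With a gap of at least 2-fold, 370 were higher and 277 lower, 370 and 274 in all 4 pairs, with 153 and 360 differing within the sides. Requiring end stage arrays above the highest background, chosen after seeing the data, left 2723 lower. With 1 array left out, 4387 to 5861 were higher and 3615 to 4866 lower, 875 to 2196 and 728 to 1765 in all 4 pairs, with 243 to 2975 (bean stages) and 3476 to 5485 (end stages) differing within the sides. The 4-pair counts were 875 and 728 without bean 5 mm replicate 1, 959 and 774 when pod elongation replicate 1 was left out, 928 and 762 when its replicate 2 was, and 785 were lower without bean 2 mm replicate 1. The count between bean stages moved by over 1.5 times without any one array. With the replicate block, 5144 were higher and 4307 lower. The sign turned as deposited and on the control scale for CCR (0.14 and 0.24), 4CL1 (0.18 and 0.22), LEA-2 (0.10 and 0.18), BRI1B (0.55 and 0.58), BZIP95 (0.43 and 0.48), TUBB3 (0.40 and 0.50), CAB3 (0.34 and 0.45), RPS13 (0.26 and 0.37) and RPS6 (0.46 and 0.57). Under quantile normalization RPS13 was 0.19 and RPS6 0.43. N-21 was 0.01 as deposited, and FAD2-1A 0.04 on the control scale. The cause was not tested. Of the other values of named genes under alternatives, 2062 kept direction and side of the threshold, 122 lost the call and 7 gained one. Dim transcripts limit the lower calls. A promoter motif count was not run.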
